A study of Mus musculus with 12 samples.

Results

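Islets of Langerhans from mice lacking the clock gene Bmal1 (gene symbol Arntl) in beta cells were compared with islets of floxed control mice 24 h after streptozotocin (STZ), a toxin used to injure beta cells. The libraries were chosen by genotype, treatment and time alone, which gave 4 of the 12 RNA-seq libraries in the series: 2 of knockout islets and 2 of control islets. All genes were examined, and 17411 of the 24421 listed genes had enough counts to be tested. Knockout mice were Bmal1 fl/fl carrying RIPCreERT, a drug-inducible Cre recombinase driven by the rat insulin promoter, and control mice were Bmal1 fl/fl without the Cre. Both groups of the comparison received a submaximal dose of STZ. The other libraries, 2 per group, came from knockout and control mice given citrate buffer as vehicle, islets taken at 24 h, and from knockout and control mice given STZ, islets taken at 4 weeks. Since the Cre acts in insulin-producing cells, other islet cells and any tissue carried over with the islets keep the intact gene. The labels describe the cells as predominantly beta cells. They give neither the age of the mice nor the schedule of Cre induction, and do not say whether the replicates A and B of a group are separate mice, so a p-value here reflects how much these libraries vary, and that variation may be technical.

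BMAL1 pairs with CLOCK or NPAS2 and binds E-box DNA to switch on the Per, Cry, Nr1d and Dbp genes, whose products close the daily feedback loop. Beta cells are the insulin-secreting cells of the islet, and their clock is known to act on insulin secretion and on the response to oxidative stress. STZ is a glucose analogue that enters beta cells through the transporter GLUT2 (Slc2a2) and alkylates DNA. The damage activates PARP1, drains NAD and kills cells, and immune cells then enter the islet.

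Sequencing depth was even, with 112.3 M and 120.2 M counts in the knockout STZ libraries A and B and 109.6 M and 121.3 M in the control STZ libraries A and B, and 101.8 M to 127.2 M across all 12. The 10 most abundant genes took 23.4% to 35.3% of the counts of a library, so levels are given as CPM, counts scaled to library size with TMM normalisation factors. The floxed exon 8 of Arntl, at chromosome 7, 113284999 to 113285156 (mm10), checked the labels. Its coverage over the mean coverage of all Arntl exons averaged 0.88 ± 0.29 in the 6 knockout libraries and 1.71 ± 0.16 in the 6 control libraries (SD). In the 24 h STZ libraries the ratio was 1.36 and 0.94 in knockout islets and 1.74 and 1.67 in control islets, so the groups did not overlap, but the knockout libraries kept much of the exon. Over the 6 libraries of each genotype the log2 difference was −0.94 (exact two-sided permutation test, p = 0.00216, adjusted p = 0.0433 over 20 exons). Total Arntl was 8.88 and 9.43 CPM in knockout islets and 11.2 and 10.8 CPM in control islets. The log2 difference of −0.26 ± 0.11 (SE) did not pass the threshold (adjusted p = 0.0877, edgeR's quasi-likelihood test). By the same test, total Arntl was higher in knockout islets under vehicle (log2 1.14, adjusted p = 0.000238). Its levels there were 17.8 and 19.9 CPM in knockout islets and 8.79 and 8.36 CPM in control islets. At 4 weeks after STZ total Arntl was lower in knockout islets (log2 −0.84, adjusted p = 0.000548). Esr1, the oestrogen receptor gene whose hormone-binding part is built into CreERT, had 51.1 and 54.9 CPM in knockout islets and 2.29 and 1.67 CPM in control islets and was separated by genotype in all conditions. Under vehicle Esr1 had 359 and 323 CPM in knockout islets and 0.968 and 0.842 CPM in control islets, so the genotype difference was smaller after STZ (log2 −3.81 for the change in the difference, adjusted p = 1.31e-05).

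At 24 h after STZ, endocrine genes were lower in knockout islets than in control islets, and genes of macrophages, lymphocytes, antigen presentation and the interferon response were higher. Many p53 targets such as Cdkn1a, and genes that mature beta cells keep silent, such as Ldha, were also higher. Acinar, liver, intestinal and lymphoid marker genes were higher in the same libraries. By edgeR's quasi-likelihood test with Benjamini-Hochberg adjustment, 7491 of 17411 genes, 43.0%, passed an adjusted p of 0.05. Of these, 4119 were higher in knockout islets (23.7% of those tested) and 3372 lower (19.4%). These percentages are the background against which each gene group below is read, since many genes passed. Above 8-fold, 1057 genes were higher and 76 lower. The split depends on the scaling: with libraries scaled to their total counts, 3318 genes were higher and 5183 lower, and the median gene was shifted by −0.24 on the log2 scale; small changes in either direction are relative to the scaling.

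The 53 gene groups examined spread widely around this background. The plot of all their members shows endocrine groups to the left of 0 and immune, matrix and neighbouring-tissue groups to the right.

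**Figure D1:**
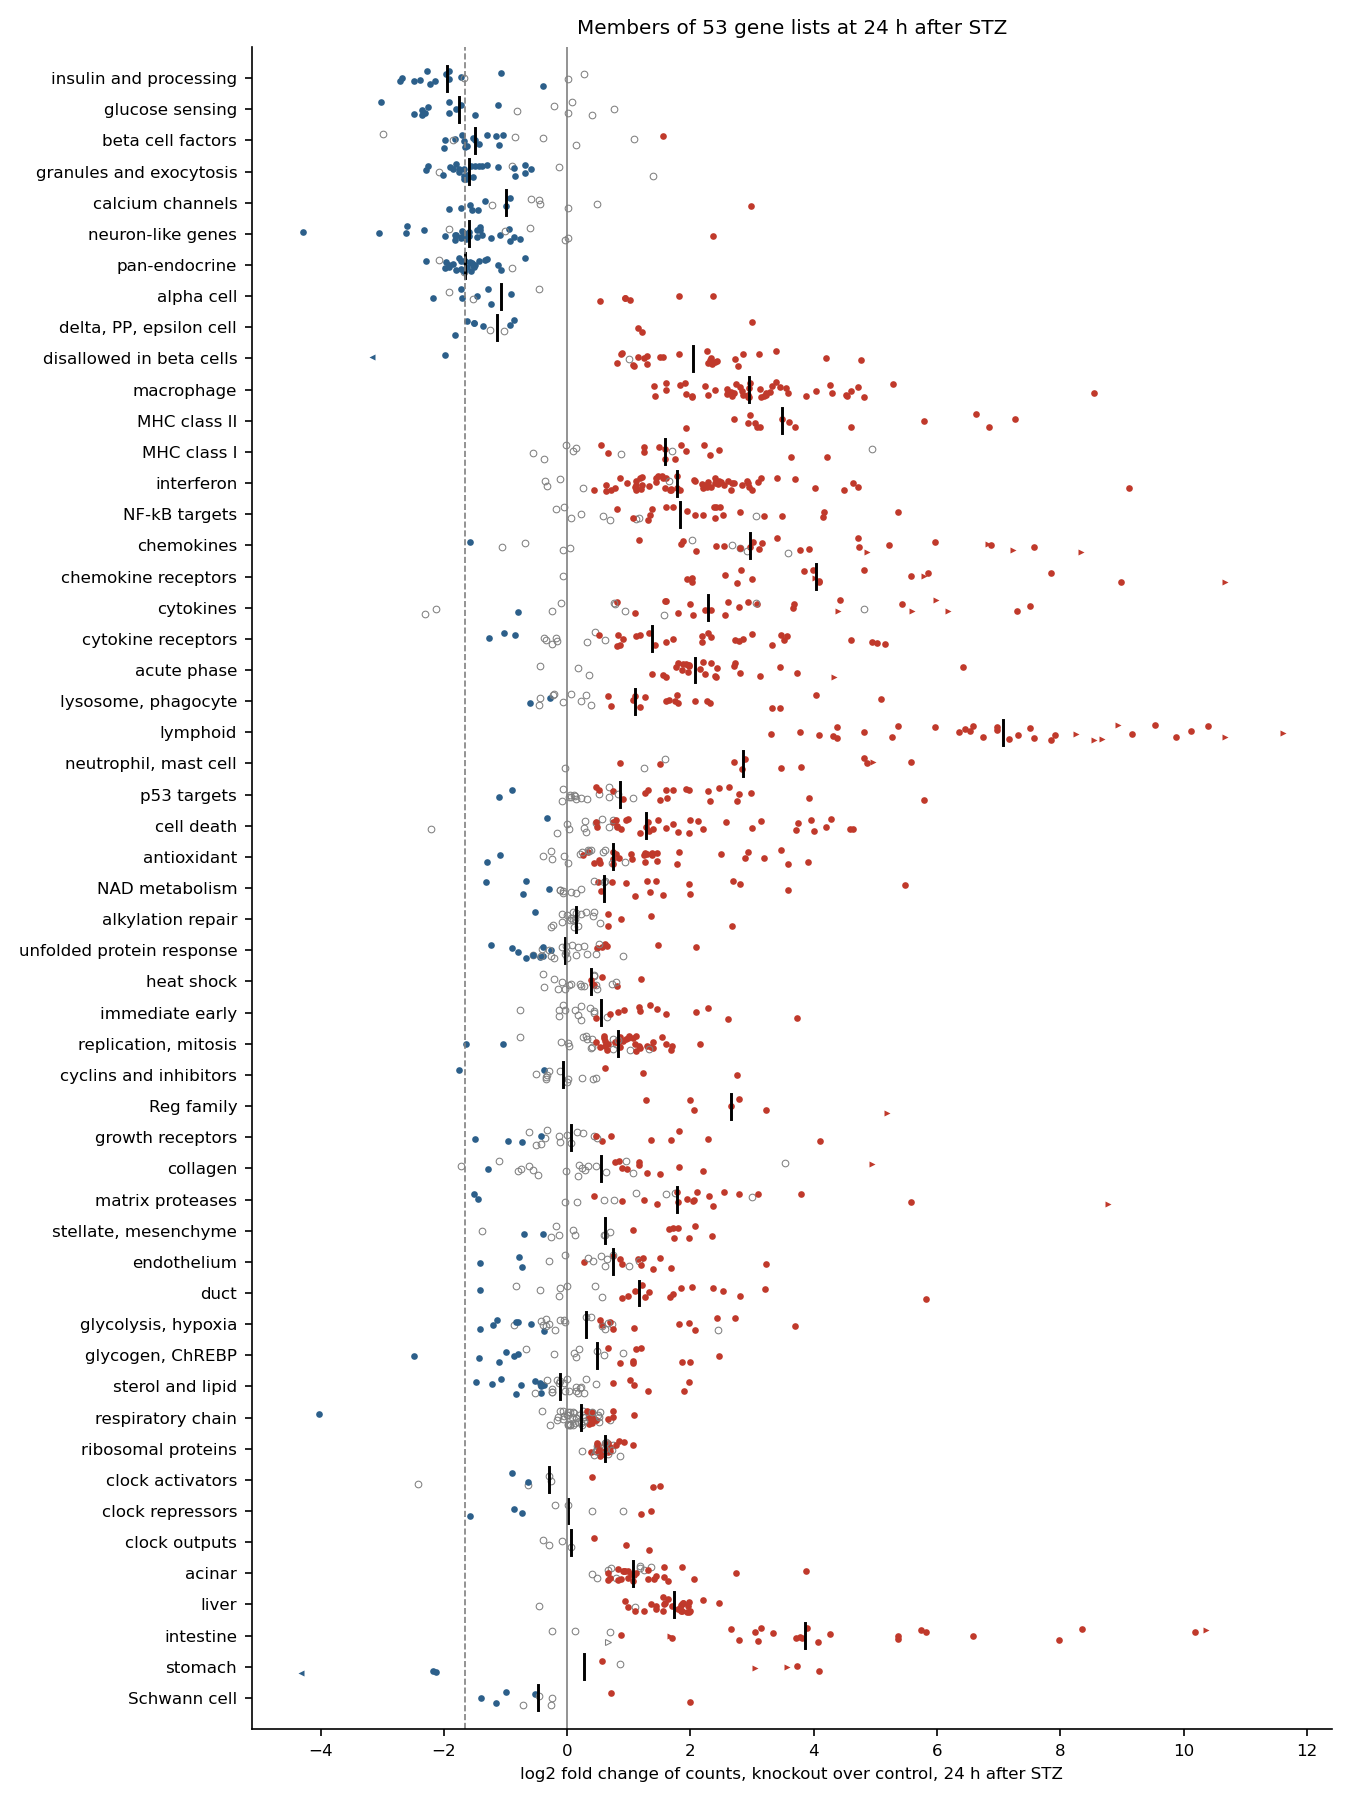
Log2 difference, knockout minus control islets at 24 h after STZ (horizontal axis), for the tested members of 53 gene groups (rows). Filled red and blue points passed an adjusted p of 0.05 as higher and lower in knockout islets, open grey points did not pass, triangles are lower bounds where a group had no counts, black bars are medians, the solid line is 0 and the dashed line is the median of the pan-endocrine genes, −1.66; macrophage and MHC class II members all lie right of 0, while insulin-processing medians lie left of the dashed line.

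Hormone, prohormone-processing and granule genes of beta cells fell. Of 16 genes for insulin, amylin and prohormone processing, 13 were lower in knockout islets and none higher, with a median log2 difference of −1.95. Ins1 (chr19:52264323-52265458 in mm10, plus strand, whole gene) had 5125 and 5698 CPM in knockout islets and 33095 and 36281 CPM in control islets, a 6.41-fold lower mean (log2 −2.68 ± 0.34, adjusted p = 0.000291). Ins2, the main insulin gene of the mouse, had 13081 and 15342 CPM in knockout islets and 65449.6 and 71273 CPM in control islets (log2 −2.27, adjusted p = 0.00243). Both insulin genes were separated between genotypes without overlap; they are near-identical in part, so reads could have been exchanged between them. Iapp, which encodes amylin, was at 3652 and 3421 CPM in knockout islets and 16624 and 16433 CPM in control islets (log2 −2.22). Slc30a8, the zinc transporter that loads insulin granules, was at 161 and 148 CPM in knockout islets and 821 and 799 CPM in control islets (log2 −2.39). Pcsk2, a convertase that trims proinsulin and proglucagon, differed by −2.15, and Ucn3, the hormone that marks mature beta cells, by −2.71. In bulk tissue, fewer beta cells and less RNA per beta cell cannot be told apart.

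Under vehicle the same 16 genes held 1 higher member, no lower member and a median of 0.26. The change in the genotype difference with STZ, tested as an interaction, passed as negative for 13 of the 16, with a median of −2.23; over all genes 37.7% passed this test, 21.1% positive and 16.6% negative. Insulin-processing genes together made up 2.22% and 2.44% of all counts in knockout STZ islets and 13.4% and 14.2% in control STZ islets. In vehicle islets the share was 16.7% and 11.8% in knockouts and 8.94% and 7.88% in controls.

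Glucose sensing and incretin signalling followed. Of 18 such genes, 12 were lower and none higher, with a median of −1.76. Slc2a2 (chr3:28697903-28728360), the transporter through which STZ enters, had 154 and 142 CPM in knockout islets and 764 and 753 CPM in control islets, 5.13-fold lower (adjusted p = 3.4e-06). G6pc2, the islet glucose-6-phosphatase, was at 479 and 459.6 CPM in knockout islets and 2645 and 2638 CPM in control islets (log2 −2.49). Trpm5, a cation channel of the glucose response, differed by −3.02 and Glp1r, the receptor of the incretin GLP-1, by −2.30.

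Transcription factors that maintain the beta-cell state were lower in 14 of 21 cases, with a median of −1.49. Pdx1 had 9.72 and 8.53 CPM in knockout islets and 31.6 and 32.9 CPM in control islets (log2 −1.82, adjusted p = 0.000337). Nkx6-1 differed by −2.0, Neurod1 by −1.67 and Pax6 by −1.65. Mafa, the factor of mature beta cells, had 0.195 and 0.612 CPM in knockout islets and 2.74 and 3.71 CPM in control islets; the groups did not overlap, but at these low levels the difference did not pass (log2 −2.99, adjusted p = 0.0718). Hnf4a was the member that rose, at 146 and 149.7 CPM in knockout islets and 49.9 and 51.3 CPM in control islets (log2 1.55, adjusted p = 7.99e-06). Hnf4a is also strongly expressed in liver and intestine, whose markers were higher in the same libraries.

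Secretory and neuron-like genes also fell. In exocytosis, 26 of 30 genes were lower and none higher (median −1.59); these included Ptprn2, a granule membrane phosphatase, at 237 and 246 CPM in knockout islets and 797 and 823 CPM in control islets. Among 34 genes that islet cells share with neurons, 28 were lower and 1 higher (median −1.59). Cntnap2 (chr6:45060061-47301371), a neuronal adhesion gene, had 3.19 and 2.70 CPM in knockout islets and 58.2 and 56.1 CPM in control islets, 19.4-fold lower (log2 −4.28 ± 0.13, adjusted p = 4.9e-07). Its genotype difference under vehicle was −0.52, and the interaction was −3.76. Csmd1, a large membrane protein gene of neurons, went the other way, with 2.99 and 3.66 CPM in knockout islets and 0.544 and 0.745 CPM in control islets (log2 2.37). Among calcium channel subunits, 8 of 15 were lower, including Cacna1d and Cacna1c, the L-type channels of beta cells (log2 −1.58 and −1.73). Cacna1e was higher (log2 2.98), at 4.37 and 3.57 CPM in knockout islets and 0.395 and 0.609 CPM in control islets.

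**Figure D2:**
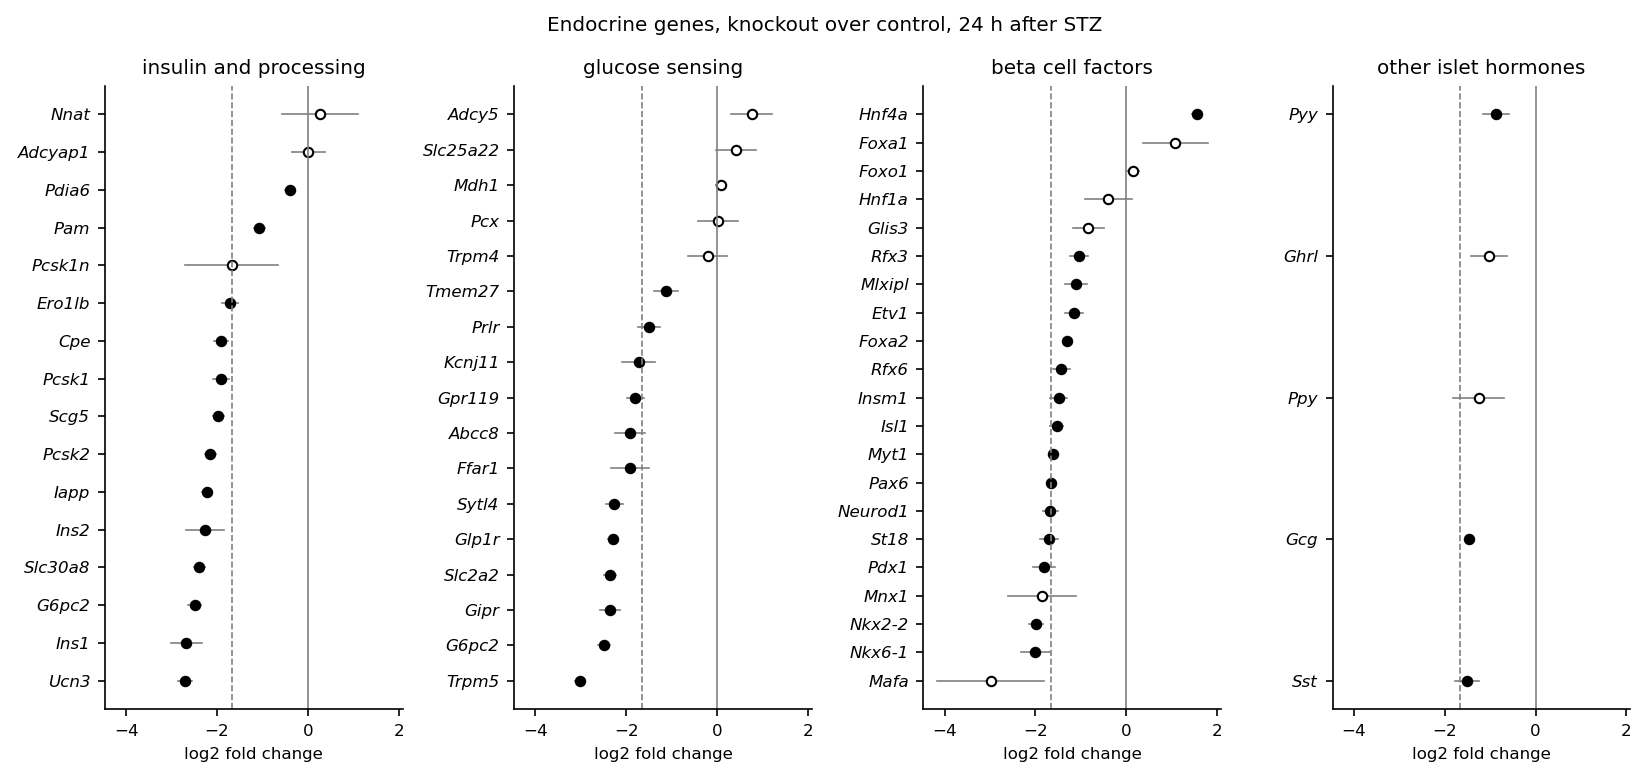
Log2 difference, knockout minus control islets at 24 h after STZ, with its SE, for single endocrine genes; filled points passed an adjusted p of 0.05. The dashed line at −1.66 is the median of the 30 pan-endocrine genes: Ins1, Ucn3 and Trpm5 lie below it, and Gcg and Sst above it.

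Other islet hormones were also lower. Gcg (chr2:62474530-62483653), the glucagon gene of alpha cells, had 7853 and 7716 CPM in knockout islets and 21347 and 21408 CPM in control islets (log2 −1.46 ± 0.09, adjusted p = 6.3e-06). Sst, the somatostatin gene of delta cells, had 139 and 158 CPM in knockout islets and 406 and 437 CPM in control islets (log2 −1.51). Ppy, pancreatic polypeptide, had 381 and 489 CPM in knockout islets and 953 and 1112 CPM in control islets, which did not pass (log2 −1.25, adjusted p = 0.105). For Gcg and Sst the groups did not overlap. The Cre acts in insulin-producing cells, and the cause of the lower Gcg and Sst was not tested. As a yardstick, 30 genes shared by all islet endocrine cells had a median of −1.66, with 27 lower and none higher. Against that median, Ins1 lay a further −1.02 and Slc2a2 a further −0.70 on the log2 scale, Pdx1 −0.16 and Neurod1 −0.01, while Gcg lay 0.20 and Sst 0.15 above. Of the 16 insulin-processing genes, 6 lay more than 0.5 below it and 4 more than 0.5 above it. For the 18 glucose-sensing genes these numbers were 6 below and 7 above, for the 21 beta-cell factors 1 below and 8 above, and for the 16 alpha-cell genes 1 below and 8 above. These positions are a description, with no test, and any gene between −1.66 and 0 lies above the yardstick while being lower in CPM.

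Alpha-cell genes split, with 6 of 16 higher and 7 lower (median −1.07). The higher ones included Gc, a vitamin D carrier made by alpha cells and liver, at 1453 and 1382 CPM in knockout islets and 401 and 403 CPM in control islets (log2 1.82). Delta, PP and epsilon-cell genes were 3 higher and 7 lower of 12 (median −1.14). Lepr, the leptin receptor, was higher (log2 3.0), at 59.3 and 51.5 CPM in knockout islets and 7.13 and 6.67 CPM in control islets. Rbp4, retinol-binding protein of delta cells and liver, was also higher (log2 1.22). The remaining higher member was Hhex, a delta-cell marker. It had 33.2 and 30.1 CPM in knockout islets and 14.7 and 13.8 CPM in control islets (log2 1.15). Delta-cell genes thus moved both ways, with Sst lower.

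Genes normally silenced in mature beta cells moved up. Of 30 such "disallowed" genes, 27 were higher and 2 lower, with a median of 2.04. Ldha, lactate dehydrogenase A, had 213 and 226 CPM in knockout islets and 40.9 and 40.5 CPM in control islets, 5.39-fold higher (adjusted p = 1.81e-05). Slc16a1, the lactate and pyruvate carrier MCT1, had 29.8 and 27.1 CPM in knockout islets and 3.64 and 4.27 CPM in control islets (log2 2.85). Rest, a repressor of neuronal genes, had 9.43 and 9.52 CPM in knockout islets and 2.01 and 1.96 CPM in control islets (log2 2.26). Aldh1a3, a marker of dedifferentiated beta cells, had 8.11 and 7.53 CPM in knockout islets and 2.91 and 2.56 CPM in control islets (log2 1.51); under vehicle its difference was 1.17, and the interaction did not pass (0.35, adjusted p = 0.139). Neurog3, the factor of endocrine progenitors, was lower (log2 −1.98), as was Gast, the gastrin gene, with no counts in knockout islets and at least 9.01-fold lower. Many disallowed genes, such as Arhgdib (log2 4.20) and Cxcl12 (log2 3.11), are abundant in blood and connective-tissue cells. Under vehicle the picture of this group was reversed, with 1 higher and 21 lower (median −0.79), against 9.64% of all genes passing there, 1.96% higher and 7.68% lower.

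Macrophage genes were higher throughout. All 48 tested macrophage genes passed as higher, with a median of 2.95, and 43 to 46 still passed when any library was left out. Lyz2 (chr10:117277541-117282272), the lysozyme of phagocytes, had 669.7 and 637 CPM in knockout islets and 61.5 and 58.4 CPM in control islets, 10.9-fold higher (log2 3.45 ± 0.12, adjusted p = 5.93e-07). Csf1r, the growth factor receptor of macrophages, had 233 and 238 CPM in knockout islets and 23 and 23.9 CPM in control islets (log2 3.33). Cd68, a lysosomal marker of macrophages, had 32.8 and 38.0 CPM in knockout islets and 3.63 and 4.46 CPM in control islets (log2 3.13). Adgre1, which encodes F4/80, differed by 2.94. C1qa, a complement gene of tissue macrophages, had 59.7 and 72.9 CPM in knockout islets and 24.7 and 25.2 CPM in control islets (log2 1.41, adjusted p = 0.0223), a call that was lost with a library left out.

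Scavenger receptors found on particular macrophages were among those that rose. Marco (chr1:120474538-120505084), found on macrophages of spleen, lymph node and peritoneum, had 324 and 348 CPM in knockout islets and 0.684 and 1.11 CPM in control islets, 372-fold higher (adjusted p = 1.49e-06). Siglec1, which encodes CD169, had 54.3 and 63.6 CPM in knockout islets and 1.42 and 1.60 CPM in control islets (log2 5.28). Cd163, the haemoglobin scavenger receptor, differed by 4.04. Macrophage genes together made up 0.369% and 0.371% of counts in knockout STZ islets and 0.0555% and 0.0547% in control STZ islets; in vehicle islets the shares were 0.0282% and 0.0272% in knockouts and 0.0253% and 0.0255% in controls. The vehicle comparison held 11 lower and no higher member (median −0.41), and 45 of the 48 had a positive interaction. The same 4 libraries also differed in lymphoid genes, which took 0.0819% and 0.0813% of counts in knockout islets and 0.00102% and 0.00108% in control islets; their part in the macrophage, antigen-presentation and interferon results was not tested.

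**Figure D3:**
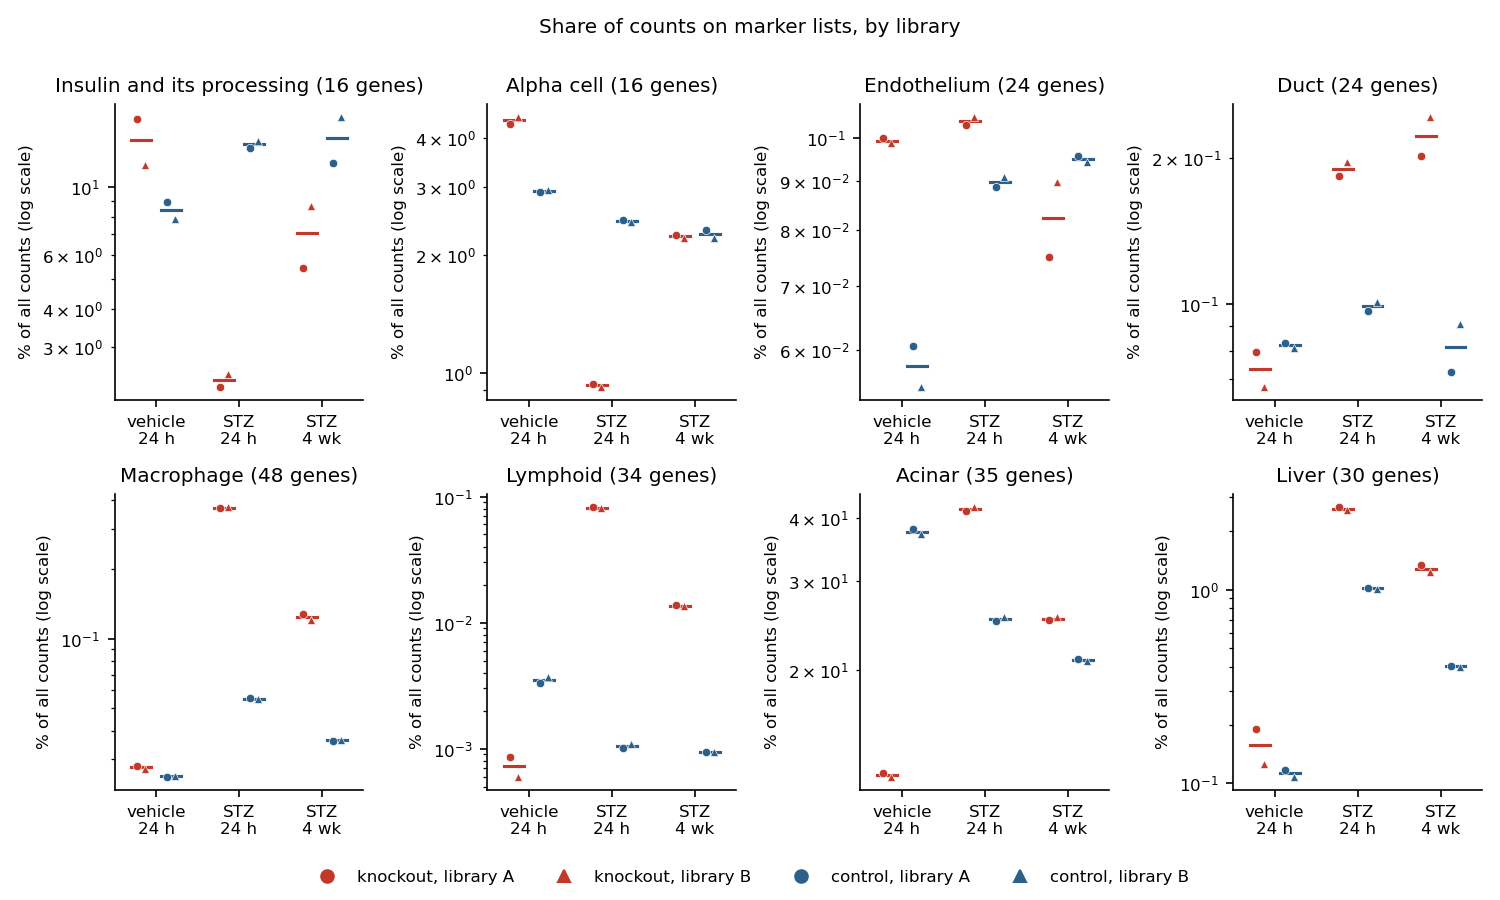
Share of all counts (%, log scale) taken by marker genes of 8 cell types or tissues in each library, knockout (red) left of control (blue) within each condition. At 24 h after STZ the macrophage share was near 0.37% in both knockout libraries and near 0.055% in both control libraries, and the insulin-processing share was 2.22% and 2.44% against 13.4% and 14.2%.

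Of 29 phagocyte and lysosomal genes, 18 were higher and 2 lower (median 1.1). Lgals3, galectin-3, had 57.9 CPM in both knockout libraries and 5.22 and 5.34 CPM in control islets (log2 3.45). Ctsb, a lysosomal protease, had 877 and 871 CPM in knockout islets and 288 and 289.9 CPM in control islets (log2 1.60). Gpnmb, a gene of lipid-laden phagocytes, differed by 3.32 and Spp1, osteopontin, by 1.1. Cd63, a membrane protein of lysosomes and secretory granules, was lower (log2 −0.61), as was Hexa, a lysosomal hexosaminidase.

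Antigen presentation rose in both of its arms. All 15 MHC class II genes were higher (median 3.49): Cd74, the invariant chain, had 574 and 656 CPM in knockout islets and 73.4 and 72.2 CPM in control islets (log2 3.08). H2-Aa, a class II chain, had 352 and 361 CPM in knockout islets and 40.7 and 40.8 CPM in control islets (log2 3.13). H2-Ob, a class II chaperone chain typical of B cells, had 74.1 and 67.5 CPM in knockout islets and 0.552 and 0.369 CPM in control islets, 153-fold higher. Ciita, the master activator of class II genes, was 24.4-fold higher. Of 23 MHC class I and immunoproteasome genes, 15 were higher and none lower (median 1.58). B2m, the light chain of class I, had 965 and 923 CPM in knockout islets and 168 and 173 CPM in control islets (log2 2.47, adjusted p = 5.96e-06). H2-K1, a class I heavy chain with close relatives in the same cluster, had 466 and 491 CPM in knockout islets and 203 and 199.7 CPM in control islets (log2 1.25). Nlrc5, which activates class I genes, differed by 4.21.

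Interferon-stimulated genes rose broadly: 61 of 67 were higher and none lower, with a median of 1.78. Many such genes carry the interferon response element, which the IRF family of factors recognises. The motif, GAAA followed by 2 bases of any kind and GAAA again, was searched on both strands in the 250 bases before each RefSeq gene start (GRCm38.p6). It was found in 936 of 27025 genes, 3.46%, and in 25 of the 48 interferon-stimulated genes with a promoter in the table, 52.1%. Of those 25 genes, 23 were higher; of the 23 genes without it, 20 were higher. It was present in 3 of 19 MHC class I genes and 3 of 26 chemokines. The stretches below show the match in B2m, described above, and in 4 genes whose values follow, 60 bases each, 5′ to 3′ on the strand of the gene, with motif matches in capitals.
Bst2, chr8:71537562-71537621, minus strand: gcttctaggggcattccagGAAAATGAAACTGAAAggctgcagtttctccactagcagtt
Gbp2, chr3:142620579-142620638, plus strand: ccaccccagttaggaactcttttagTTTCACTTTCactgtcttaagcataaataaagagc
Isg15, chr4:156200850-156200909, minus strand: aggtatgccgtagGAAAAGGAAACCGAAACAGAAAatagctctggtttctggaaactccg
B2m, chr2:122147523-122147582, plus strand: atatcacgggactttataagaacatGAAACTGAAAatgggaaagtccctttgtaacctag
Rsad2, chr12:26456538-26456597, minus strand: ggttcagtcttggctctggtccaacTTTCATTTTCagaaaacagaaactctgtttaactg

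Bst2, a membrane tether that holds back viruses, had 47.4 and 46.5 CPM in knockout islets and 9.09 and 8.84 CPM in control islets (log2 2.39, adjusted p = 1.01e-05). Gbp2, an interferon-induced GTPase with close relatives, had 40.6 and 39.1 CPM in knockout islets and 7.65 and 8.11 CPM in control islets (log2 2.34). Isg15, a ubiquitin-like modifier, had 7.59 and 8.20 CPM in knockout islets and 1.25 and 1.55 CPM in control islets (log2 2.5). None of these overlapped between genotypes. Rsad2, the antiviral enzyme viperin, carries a match but had 16.9 and 15.2 CPM in knockout islets and 19.9 and 20.1 CPM in control islets, and did not pass (log2 −0.32, adjusted p = 0.117). A match is a description of the letters in this window and not a measured binding site.

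Regulators of the response moved too. Irf7, the amplifier of type I interferon, had 27.3 and 31.7 CPM in knockout islets and 3.73 and 4.15 CPM in control islets (log2 2.91). Irf8, a factor of macrophages, dendritic cells and B cells, had 51.3 and 54.6 CPM in knockout islets and 1.94 and 2.10 CPM in control islets (log2 4.71). Irf1, another activator, was at 63.3 and 59.4 CPM in knockout islets and 34.3 and 33.3 CPM in control islets (log2 0.86). Tmem173, which encodes the DNA sensor adaptor STING, differed by 4.02. Ifi202b, a DNA-binding interferon gene, had 19.9 and 18.1 CPM in knockout islets and 0 and 0.0641 CPM in control islets, but it also passed as higher in knockout islets under vehicle, where controls had no counts (adjusted p = 0.011), and its interaction did not pass (adjusted p = 0.777).

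NF-kB components and targets were higher in 21 of 30 cases and lower in none (median 1.83). Vcam1, the adhesion molecule that recruits lymphocytes, had 140.4 and 124 CPM in knockout islets and 7.79 and 6.98 CPM in control islets (log2 4.16). Icam1 had 35.6 and 39.7 CPM in knockout islets and 3.93 and 4.25 CPM in control islets (log2 3.2). The feedback inhibitors Nfkbia and Tnfaip3 differed by 0.81 and 2.38. Ptgs2, the inducible cyclooxygenase, had 4.81 and 5.2 CPM in knockout islets and 0.289 and 0.272 CPM in control islets (log2 4.15). Nos2, the inducible nitric oxide synthase linked to cytokine injury of beta cells, had 2.20 and 2.04 CPM in knockout islets and 0.263 and 0.240 CPM in control islets, and did not pass (log2 3.07, adjusted p = 0.0644).

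Chemokines rose in 24 of 35 cases (median 2.96). Cxcl13, the attractant of B cells, had 78.8 and 68.4 CPM in knockout islets and 0.535 and 0.240 CPM in control islets, 190-fold higher (adjusted p = 1.09e-05). Cxcl9 and Cxcl10, the interferon-gamma-induced attractants of T cells, were 26.5-fold and 37.3-fold higher. Ccl2, the attractant of monocytes, had 4.51 and 4.53 CPM in knockout islets and 0.342 and 0.769 CPM in control islets (log2 3.02). Ccl22 had no counts in control islets and was at least 323-fold higher in knockout islets, taking 3 counts over the control group as the floor. The macrophage chemokines Ccl3 and Ccl4 did not pass: Ccl3 had 1.35 and 0.965 CPM in knockout islets and 1.19 and 1.21 CPM in control islets (adjusted p = 0.922), and Ccl4 had 0.844 and 0.898 CPM in knockout islets and 0.728 and 0.962 CPM in control islets. Ccl28, a mucosal chemokine, was lower (log2 −1.57). Of 20 chemokine receptors, 19 were higher and none lower, with a median of 4.00 when genes without control counts are set at their bound. Cxcr4, the receptor of Cxcl12, had 57.0 and 52.8 CPM in knockout islets and 3.38 and 3.10 CPM in control islets (log2 4.08).

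Cytokine genes were higher in 24 of 36 cases and lower in 1 (median 2.29), a count that fell to 16 or 17 with a library left out. Il33, an alarmin stored in stromal and endothelial nuclei, had 91.9 and 84.5 CPM in knockout islets and 2.32 and 1.78 CPM in control islets (log2 5.43). Il1rn, the natural antagonist of IL-1, had 9.17 and 8.56 CPM in knockout islets and 0.947 and 0.441 CPM in control islets (log2 3.68), and Il1b itself differed by 1.79. Tnf had 1.75 and 1.53 CPM in knockout islets and 0.237 and 0.152 CPM in control islets, and Il6 had 0.247 and 0.526 CPM in knockout islets and 0.0263 and 0 CPM in control islets; neither passed (adjusted p = 0.0822 for Tnf and 0.0641 for Il6). Hbegf, an EGF-receptor ligand, was lower (log2 −0.79). Cytokine receptors were higher in 27 of 38 cases and lower in 3. Il2rg, the chain shared by receptors of lymphocyte cytokines, had 89.8 and 89.3 CPM in knockout islets and 2.49 and 2.52 CPM in control islets (log2 5.16). The IL-1 receptor Il1r1, abundant on beta cells, was lower, at 208 and 191 CPM in knockout islets and 490.4 and 470.1 CPM in control islets (log2 −1.27), as were Il6ra (log2 −1.02) and the decoy receptor Il1r2.

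Acute-phase and complement genes were higher in 27 of 30 cases and lower in none (median 2.07). C3, the central complement protein, had 2515 and 2677 CPM in knockout islets and 488 and 506 CPM in control islets (log2 2.39). Serpina3n, a protease inhibitor of inflamed tissue, had 442 and 457 CPM in knockout islets and 40.9 and 40.7 CPM in control islets (log2 3.46). Saa3 and Lcn2, the inducible acute-phase genes of macrophages and epithelia, differed by 3.12 and 2.80. Several members, such as Cfb and C3, are also made by liver, whose markers were higher in the same libraries.

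Lymphoid genes, of B cells, T cells and lymph-node vessels, were nearly absent from control islets. All 34 were higher, with a median of 7.07, and 6 of them had no counts in control STZ islets. Ms4a1, which encodes CD20, had 93.3 and 81.8 CPM in knockout islets and 0.0702 and 0.112 CPM in control islets (log2 9.88 ± 0.46, adjusted p = 2.31e-06). Cd79b, a part of the B-cell receptor, had 61.6 and 61.4 CPM in knockout islets and 0.228 and 0.280 CPM in control islets. Cd4 had 35.7 and 35.5 CPM in knockout islets and 0.167 and 0.489 CPM in control islets. Cd3d, of the T-cell receptor complex, was at least 487-fold higher, and Glycam1, a gene of lymph-node vessels, at least 3120-fold higher, each from a control group with no counts. These values cover lymphocytes and lymph-node vessel cells alike. Under vehicle 13 lymphoid genes were lower in knockout islets and none higher. Genes of neutrophils and mast cells were higher in 11 of 14 cases, but in only 6 with a library left out.

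**Figure D4:**
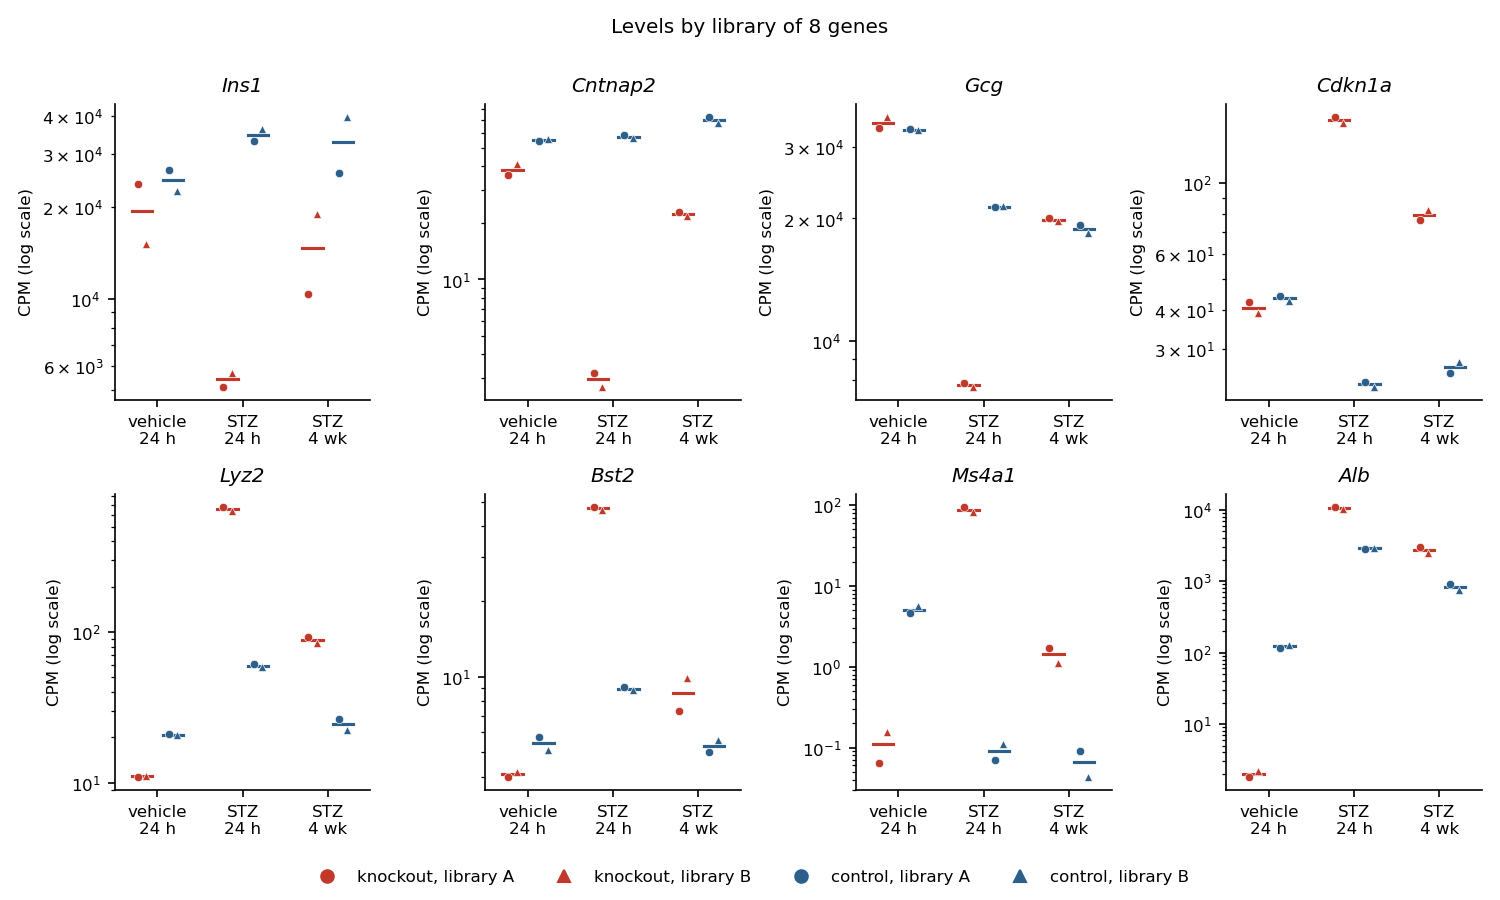
Levels in CPM (log scale) of 8 genes in every library, knockout (red, left) and control (blue, right) within each condition; circles are replicates A, triangles replicates B and bars the means. At 24 h after STZ, Ins1, Cntnap2 and Gcg lie lower in knockout islets, and Cdkn1a, Lyz2, Bst2, Ms4a1 and Alb higher, with no overlap.

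Targets of p53, the DNA damage regulator, were higher in 21 of 38 cases and lower in 2 (median 0.86). Cdkn1a (chr17:29090986-29100722), which encodes the cell-cycle inhibitor p21, had 161 and 155 CPM in knockout islets and 23.7 and 22.9 CPM in control islets, 6.77-fold higher (log2 2.76 ± 0.10, adjusted p = 8.32e-07). Under vehicle it had 42.3 and 38.9 CPM in knockout islets and 44.2 and 42.7 CPM in control islets, with no overlap in the STZ libraries and near-equal levels in the vehicle ones. Pmaip1, the death-promoting gene NOXA, had 14.6 and 13.8 CPM in knockout islets and 0.816 and 1.06 CPM in control islets (log2 3.92). Eda2r, a death receptor, had 21.2 and 19.5 CPM in knockout islets and 2.61 and 2.54 CPM in control islets (log2 2.98), and Phlda3, an inhibitor of AKT, differed by 2.47. Mdm2, the p53 ubiquitin ligase, had 75.5 and 74.4 CPM in knockout islets and 53.8 and 51.2 CPM in control islets but did not pass (log2 0.51, adjusted p = 0.508); its replicates differed elsewhere, at 57.7 and 17.4 CPM in vehicle knockout islets. Bax did not pass either (log2 0.68, adjusted p = 0.318). Tigar, a p53 target that lowers glycolytic flux, was lower (log2 −1.11), as was the ribonucleotide reductase Rrm2b.

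Among 24 genes for repair of alkylated DNA, 5 were higher and 1 lower (median 0.14, and −0.11 with total-count scaling). Mgmt, which removes methyl groups from guanine, had 3.50 and 4.31 CPM in knockout islets and 1.54 and 1.5 CPM in control islets (log2 1.36, adjusted p = 0.0101), a call lost with a library left out. Parp1, which STZ damage activates, had 59.0 and 65.9 CPM in knockout islets and 45.5 and 47.2 CPM in control islets and did not pass (log2 0.43, adjusted p = 0.102). Parp3 was 6.36-fold higher, and Aptx, which clears abortive ligation ends, was lower (log2 −0.53). Among genes that make or use NAD, 15 of 29 were higher and 4 lower (median 0.60). Cd38, an NAD-consuming enzyme abundant on lymphocytes, had 81.9 and 71.8 CPM in knockout islets and 12 and 10.2 CPM in control islets (log2 2.80). Kmo, of the route from tryptophan to NAD, had 73.6 and 66.4 CPM in knockout islets and 17.9 and 17.7 CPM in control islets (log2 1.98). Nampt, of the salvage route, had 91.0 and 80.6 CPM in knockout islets and 58.8 and 53.9 CPM in control islets and did not pass (log2 0.61, adjusted p = 0.0704). The lower members were Sarm1 (log2 −1.31), Nmnat2, Nmnat3 and Slc25a51.

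Antioxidant genes were higher in 29 of 45 cases and lower in 2 (median 0.75). Hmox1, haem oxygenase 1, had 28.3 and 29.7 CPM in knockout islets and 4.84 and 5.39 CPM in control islets (log2 2.5, adjusted p = 9.55e-05). Cat, catalase, had 351 and 349 CPM in knockout islets and 148 and 149 CPM in control islets (log2 1.24). Ncf1, a subunit of the phagocyte oxidase that makes superoxide rather than removing it, differed by 3.47, so not all of these genes are antioxidant. Nqo1, a target of NRF2, differed by 0.75, and Sod2, the mitochondrial superoxide dismutase, did not pass. The secreted peroxidase Gpx3 was lower, at 134 and 139.8 CPM in knockout islets and 282 and 301 CPM in control islets, and so was Gpx2.

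Endoplasmic reticulum stress genes moved both ways: 6 of 34 were higher and 9 lower (median −0.03). With a library left out 4 to 6 were higher and 3 to 5 lower, and with total-count scaling 3 were higher and 13 lower. The group thus did not stand out clearly from the background of all genes. Hspa5, the chaperone BiP, had 1360.2 and 1256 CPM in knockout islets and 1362 and 1253 CPM in control islets. Ddit3, which encodes CHOP, had 7.11 and 7.41 CPM in knockout islets and 10.1 and 9.44 CPM in control islets and did not pass (adjusted p = 0.439). Atf3 was higher (log2 2.09) and Psat1, a serine-synthesis target of ATF4, was higher (log2 1.48), while Atf6, Hyou1 and Wfs1, the Wolfram syndrome gene, were lower (log2 −0.66, −0.80 and −1.23). Heat-shock genes were higher in 6 of 23 cases and lower in none (median 0.38), a count of 2 or 3 with a library left out.

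Cell-death genes were higher in 33 of 45 cases and lower in 1 (median 1.28). Genes of inflammatory death were among them. Zbp1, a nucleic acid sensor, had 14.7 and 16.0 CPM in knockout islets and 0.842 and 0.401 CPM in control islets (log2 4.63). Ripk3, the necroptosis kinase, had 8.32 and 9.44 CPM in knockout islets and 0.368 and 0.369 CPM in control islets (log2 4.59). Casp1, the inflammasome protease, had 23.8 and 20.6 CPM in knockout islets and 1.67 and 1.73 CPM in control islets (log2 3.71). Diablo, a mitochondrial caspase activator, was lower (log2 −0.32), a call lost with a library left out. Immediate early genes were higher in 13 of 26 cases and lower in none (median 0.55), among them Zfp36 (log2 1.60) and Fosl2 (log2 1.18). Fos was not among them, with 78.2 and 83.4 CPM in knockout islets and 88.8 and 88.4 CPM in control islets (adjusted p = 0.36).

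Replication and mitosis genes were higher in 31 of 49 cases and lower in 2 (median 0.82), a count of 13 to 18 with a library left out and of 17 with total-count scaling. Mki67, a marker of cycling cells, had 39.9 and 35.8 CPM in knockout islets and 17.0 and 16.4 CPM in control islets (log2 1.18, adjusted p = 0.00315). Mcm3, of the replicative helicase, had 20.7 and 22.6 CPM in knockout islets and 6.88 and 7.30 CPM in control islets (log2 1.61). The 2 lower members were E2f1 and Pbk, a mitotic kinase (log2 −1.04 and −1.64). Among cyclins and their inhibitors, 3 of 16 were higher and 2 lower. Ccnd2, the D-cyclin of adult beta cells, had 279 and 273 CPM in knockout islets and 945 and 921 CPM in control islets, 3.39-fold lower (adjusted p = 6.98e-06). Ccnd1 was slightly lower (log2 −0.37), and 0.5% of its exonic length is shared with another gene on the same strand.

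All 7 Reg genes, secreted proteins of regenerating and inflamed pancreas, were higher (median 2.66). Reg3b had 3908 and 3634 CPM in knockout islets and 548 and 546 CPM in control islets (log2 2.79), and Reg2 had 10952 and 9924 CPM in knockout islets and 2562 and 2468 CPM in control islets (log2 2.05). Under vehicle 6 of the 7 were lower in knockout islets (median −2.75), so the direction was opposite in the uninjured islets: Reg3b then had 417 and 464 CPM in knockouts and 4177 and 4028 CPM in controls. Reg genes are expressed by acinar cells, and acinar genes showed the same reversal. Growth factor receptors and ligands split, with 8 of 25 higher and 4 lower; with total-count scaling the split was 5 higher and 8 lower. Igf1r had 26.0 CPM in both knockout libraries and 51.3 and 50.1 CPM in control islets (log2 −0.96), and the prolactin receptor Prlr was also lower (log2 −1.5). Both are from the lower side and do not stand for the group, which held 8 higher members.

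Matrix genes rose in part. Of 28 matrix metalloproteinases and their inhibitors, 18 were higher and 2 lower (median 1.78). Mmp12, the macrophage elastase, had 12.3 CPM in both knockout libraries and 3.04 and 2.83 CPM in control islets (log2 2.06), and Timp1, an inhibitor, differed by 1.79. The lower ones were the membrane-type enzymes Mmp16 and Mmp24. Collagens were higher in 11 of 30 cases and lower in 1, Col4a3 (median 0.55). Col3a1 had 253 and 283 CPM in knockout islets and 151 and 148 CPM in control islets (log2 0.84), while Col1a1, at 41.2 and 54.4 CPM in knockout islets and 24.1 and 25 CPM in control islets, did not pass (adjusted p = 0.166). Stellate and mesenchymal genes were higher in 8 of 19 cases and lower in 2. Pdgfra, a receptor of fibroblasts, had 46.1 and 41.2 CPM in knockout islets and 8.14 and 9.04 CPM in control islets (log2 2.35).

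Endothelial genes moved both ways: 11 of 24 were higher and 3 lower (median 0.74). Lyve1, of lymphatic vessels and some macrophages, had 167 and 166 CPM in knockout islets and 17.0 and 18.5 CPM in control islets (log2 3.23), and Pecam1, of all endothelium, differed by 1.15. Flt1 and Emcn, of capillaries, were lower (log2 −0.73 and −0.78). Vegfa, the vessel growth factor made by beta cells, had 85.9 and 55.9 CPM in knockout islets and 184 and 192 CPM in control islets (log2 −1.41). Its fall does not measure endothelium, and a count or share that includes it is not endothelial alone. Duct genes were higher in 15 of 24 cases and lower in 1, the keratin Krt7 (median 1.16). Krt19, the duct keratin, had 32.6 and 39.0 CPM in knockout islets and 6.27 and 6.19 CPM in control islets (log2 2.52), and Sox9, the duct factor, differed by 0.89.

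Most metabolic groups held calls in both directions. Glycolysis and hypoxia genes were 11 higher and 7 lower of 35 (median 0.31). The higher ones included Hk2, a hexokinase that mature beta cells hardly use (log2 2.72), Car9 (log2 3.69) and Pfkfb3 (log2 1.97), and the lower ones Pfkm, the muscle-type phosphofructokinase (log2 −1.20), and Eno2 (log2 −1.14). Genes of glycogen and of the glucose sensor ChREBP were 9 higher and 6 lower of 23; Txnip, a glucose-induced target, had 408 and 406 CPM in knockout islets and 380.1 and 372 CPM in control islets and did not pass (log2 0.11, adjusted p = 0.368, and log2 −0.14 with total-count scaling). Sterol and lipid synthesis genes were 6 higher and 10 lower of 37. Nuclear-encoded respiratory chain genes were 13 higher and 1 lower of 55 (median 0.23), and 3 higher and 8 lower with total-count scaling. The lower one, Cox6a2, a tissue-specific cytochrome oxidase subunit, had 0.741 and 0.927 CPM in knockout islets and 12.8 and 14.4 CPM in control islets, 16.2-fold lower (adjusted p = 8.67e-05). Ribosomal protein genes were higher in 20 of 34 cases and lower in none (median 0.61), a count of 9 to 11 with a library left out.

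Clock genes moved both ways, and several differed more between genotypes in vehicle islets. Of 9 clock activators and regulators of Arntl, 3 were higher and 2 lower after STZ (median −0.29). Npas2, the partner of BMAL1, had 5.37 and 6.04 CPM in knockout islets and 2.03 and 1.98 CPM in control islets (log2 1.51, adjusted p = 0.000397). Clock itself had 88.6 and 83.3 CPM in knockout islets and 137 and 128 CPM in control islets and did not pass (adjusted p = 0.267). Nr1d1, which encodes the repressor REV-ERB-alpha and is a direct target of BMAL1, had 25.2 and 30.3 CPM in knockout islets and 31.5 and 36.5 CPM in control islets and did not pass (log2 −0.29, adjusted p = 0.574). Under vehicle Nr1d1 had 7.74 and 4.98 CPM in knockout islets and 33.8 and 29.3 CPM in control islets (log2 −2.31, adjusted p = 0.00651), and its interaction was 2.02 (adjusted p = 0.018).

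Of 9 clock repressors, 2 were higher and 3 lower after STZ. The E-box CACGTG, the motif that BMAL1 dimers bind, was found in the 250 bases before the start of 1854 of 27025 genes, 6.86%, in 4 of 7 clock repressors with a promoter in the table, in 1 of 6 clock outputs and in none of 8 clock activators. The stretches below, from RefSeq (GRCm38.p6), show the E-box in capitals in a repressor that was higher and a repressor that was lower.
Cry1, chr10:85185082-85185141, minus strand: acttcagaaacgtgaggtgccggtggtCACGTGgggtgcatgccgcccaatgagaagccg
Bhlhe41, chr6:145865541-145865600, minus strand: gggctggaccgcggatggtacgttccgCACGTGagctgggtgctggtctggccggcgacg

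Cry1, a repressor of the BMAL1 complex, had 19.3 and 21.4 CPM in knockout islets and 7.70 and 8.21 CPM in control islets (log2 1.36, adjusted p = 9.62e-05). Its vehicle difference was 2.54 and its interaction −1.18. Bhlhe41, a repressor that competes for E-boxes, had 13.8 and 13.7 CPM in knockout islets and 41.9 and 40.05 CPM in control islets (log2 −1.57, adjusted p = 0.00012). Its relative Bhlhe40 was higher (log2 1.19), so these close relatives moved in opposite directions. Cry2 was lower (log2 −0.73) and so was Per3, while Per2 had 25.2 and 24.9 CPM in knockout islets and 23.3 and 26.0 CPM in control islets and overlapped (log2 0.02, adjusted p = 0.905, and log2 −0.23 with total-count scaling). Among clock outputs, Dbp had 14.4 and 18.3 CPM in knockout islets and 20.8 and 22.4 CPM in control islets and did not pass (adjusted p = 0.243). Of 7 outputs, 3 were higher, Tsc22d3, Hlf and Usp2, a count of 1 or 2 with a library left out. Tsc22d3, the glucocorticoid-induced gene GILZ, had 84.7 and 80.8 CPM in knockout islets and 33.2 and 32.8 CPM in control islets (log2 1.33, adjusted p = 8.87e-06).

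Marker genes of tissues around the islet were higher in knockout STZ libraries. Of 35 acinar genes, 26 were higher and none lower (median 1.07), and acinar genes took 41.2% and 41.9% of counts in knockout islets and 25% and 25.4% in control islets. Prss2, a trypsinogen, had 26908 and 27649 CPM in knockout islets and 11904 and 13657 CPM in control islets (log2 1.09). The vehicle islets were the other way round, with acinar shares of 12.5% and 12.3% in knockouts and 38.0% and 37.1% in controls, 33 of 35 genes lower and an interaction that was positive for all 35. Liver genes were higher in 28 of 30 cases (median 1.74): Alb, serum albumin, had 10761 and 10129.9 CPM in knockout islets and 2853 and 2932 CPM in control islets. Under vehicle Alb had 1.84 and 2.22 CPM in knockout islets and 117 and 129 CPM in control islets, so it was high in all 4 STZ libraries. Intestinal genes were higher in 24 of 28 cases, and Fabp2, the intestinal fatty acid carrier, was 41.4-fold higher. Akp3, an intestinal alkaline phosphatase outside that group, had 232 and 258 CPM in knockout islets and 0.307 and 0.369 CPM in control islets. Stomach genes were 5 higher and 3 lower of 12, and Schwann-cell genes 2 higher and 4 lower of 10, with Mbp, of myelin, lower (log2 −0.52). The part of these tissues in the other gene groups was not tested, and at 24 h they move with genotype, so a lower share of endocrine RNA and a higher share of acinar, liver, intestinal and lymphoid RNA cannot be told apart from changes within each cell type.

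Few of these genes differed in the same direction in uninjured islets. Of the 4119 genes higher at 24 h after STZ, 55 were also higher and 1053 lower in knockout islets under vehicle. Of the 3372 lower genes, 51 were also lower and 203 higher under vehicle, where 342 genes in all were higher and 1337 lower. At 24 h against vehicle, 9814 genes, 56.4% of those tested, changed in knockout islets (30.1% higher after STZ and 26.2% lower) and 1317, 7.56%, in control islets (5.41% higher and 2.15% lower). These comparisons share libraries with the genotype comparison and are not independent of it. Liver genes were higher after STZ in both genotypes, 28 of 30 in knockout islets and 28 of 30 in control islets.

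At 4 weeks after STZ, 27.8% of genes differed between knockout and control islets, 19.9% higher and 7.89% lower. The pan-endocrine median was −0.62 at 4 weeks, with 14 of 30 genes lower, against −1.66 and 27 at 24 h. Macrophage genes were higher in 39 of 48 cases at 4 weeks (median 1.77), and interferon-stimulated genes in 50 of 67 (median 1.06). The change of the genotype difference between the times was itself tested: 13.9% of genes passed, 5.09% with a more positive difference at 24 h and 8.79% with a more negative difference at 24 h. Passing genes included 20 macrophage genes with a more positive genotype difference at 24 h, such as Lyz2 (log2 difference 1.60 between the times) and Lyve1 (4.20). The Lyve1 change exceeded its rise at 24 h, so its direction was reversed at 4 weeks, with a lower estimate in knockout islets. Slc2a2 passed with a deeper fall at 24 h (−1.80). Gcg, lower at 24 h, had 20034 and 19723 CPM in knockout islets and 19254 and 18456 CPM in control islets at 4 weeks and did not pass there (log2 0.08, adjusted p = 0.597). Ins1 had 10367 and 18961 CPM in knockout islets and 26012 and 39524 CPM in control islets at 4 weeks, still lower (log2 −1.16, adjusted p = 0.0274), and its change between the times did not pass (adjusted p = 0.0604). The median of the intestinal genes was larger at 4 weeks than at 24 h, at 5.41 with all 28 higher. A larger median does not show that each gene rose further.

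**Figure D5:**
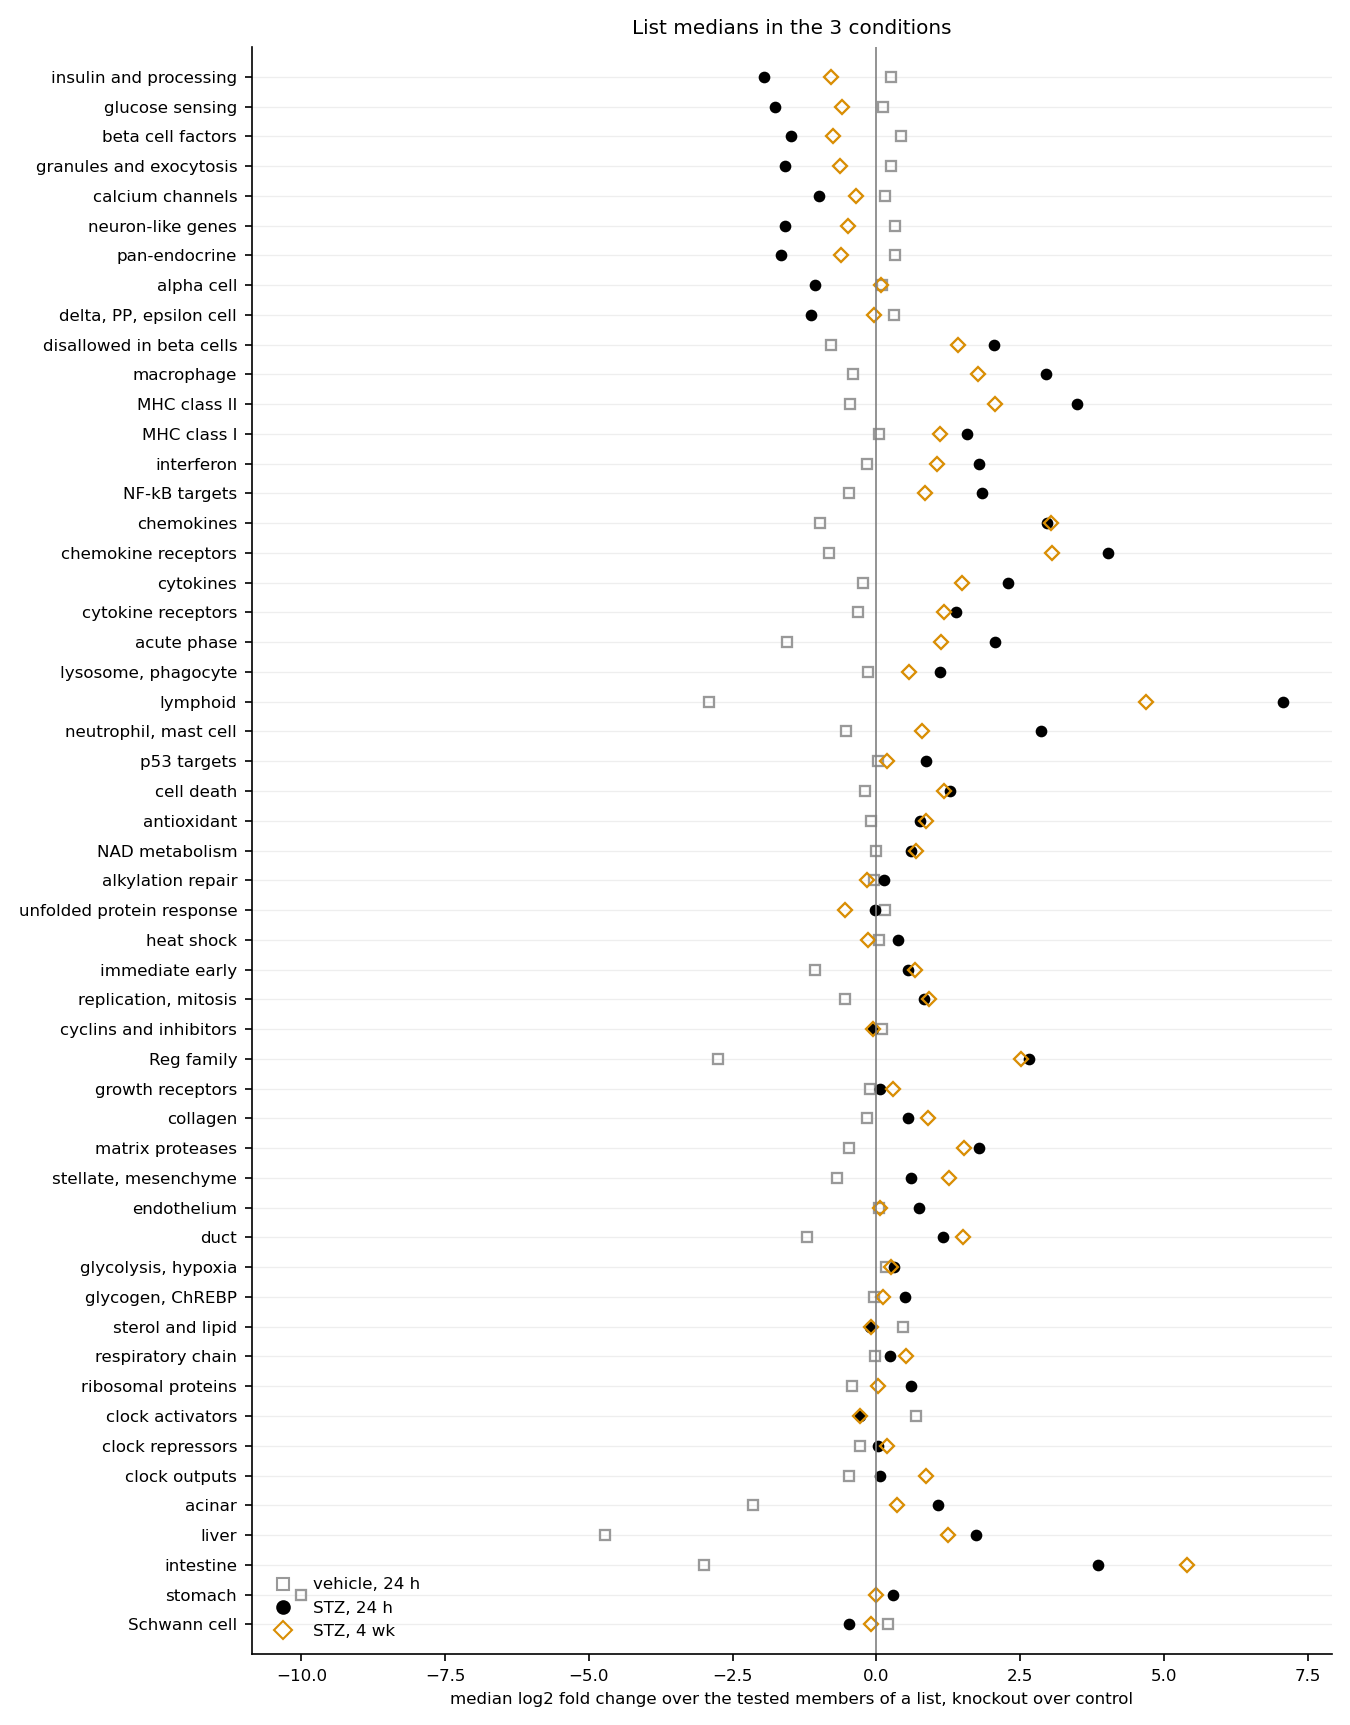
Median log2 difference, knockout minus control islets, of each of the 53 gene groups under vehicle at 24 h (square), at 24 h after STZ (filled circle) and at 4 weeks after STZ (diamond). The macrophage median is −0.41, 2.95 and 1.77 in these conditions, and the pan-endocrine median is −1.66 at 24 h and −0.62 at 4 weeks after STZ.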

How the data were processed

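Stranded mRNA libraries (TruSeq, paired reads of 100 bases, Illumina sequencing, per the labels' protocols) were made from islet RNA, 2 per group in 6 groups. The authors deposited estimated counts per gene and per transcript; every value is a whole number that matches coverage times length over 75, rounded up, so no further rounding was needed to use these estimated counts. The deposited assemblies, with coverage and TPM per transcript, came from StringTie 1.3.6 restricted to the known mm10 genes and run as stranded, per the file headers; no source used here names the aligner. From them the Arntl exon coverage was taken. Samples were grouped by genotype, treatment and time in the labels.

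Genes were filtered with filterByExpr, scaled by TMM (factors 0.83 to 1.21) and fitted with edgeR 4.0.16 in R 4.3.3 by robust quasi-likelihood over all 12 libraries as 6 group means, which share 1 spread estimate (common dispersion 0.0493, 6 residual degrees of freedom). Calls were made at an adjusted p of 0.05, by the Benjamini-Hochberg procedure over all 17411 tested genes. Counting intervals and floors (3 counts over a group) cover counting error only. DESeq2 1.42.0, other scalings, no filter, a replicate block, only the 4 libraries, and each library left out were the alternatives. The fit was tested on simulated data for the 24 h STZ comparison, with 50 genes per step. At simulated log2 differences of 1 and −1, 46% and 52% of the genes were recovered. At 2 and −2, 96% and 98% were recovered. Among genes simulated without a difference, 10 were called (0.059%). A gene that did not pass can thus still differ by a log2 of about 1, and by more at low levels, as Mafa did (log2 −2.99).

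The comparison and the 53 gene groups were chosen with earlier results of these data known. Genes were named by a fixed list; as the 15 largest called gains and losses at mean levels of at least 2 and of at least 50 CPM; as up to 4 members of smallest adjusted p per group, with those called against the majority; and as the 5 largest interactions in each direction. Ccl22, Cd163, Cd4, Ciita, Eda2r, Fos, Hyou1, Ifi202b, Kmo, Per3, Pfkfb3, Phlda3, Rest, Ripk3, Rsad2, Serpina3n, Siglec1, Slc16a1, Wfs1 and Zbp1 were named after their values were seen. Promoter sequences are from RefSeq (GRCm38.p6), matched by symbol. Single values of some genes are not reported here; the group counts include every tested member.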

Additional observations from a re-analysis of the deposited data

Results flagged for a closer look

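The genotype difference changed with STZ at 24 h for 6558 genes and between 24 h and 4 weeks after STZ for 2418 genes, each by a test of the change itself. Among the largest negative changes with STZ were Cox6a2 (log2 −4.60), Esr1 (−3.81), Cntnap2 (−3.76), Tcf24, a helix-loop-helix factor gene (−3.71), and Fam19a1, a secreted neuropeptide-like gene (−3.67). Among the largest positive changes were genes with no counts in at least 1 group, for which no fold is given. Their mean levels in knockout islets at 24 h after STZ were 61.7 CPM for Cr2, the complement receptor of B cells, and 39.4 CPM for Glycam1. The means were 21.4 CPM for H2-Eb2, a class II chain, and 0.149 and 0.107 CPM for the stomach genes Gkn1 and Gkn2. These 2 stomach genes were high in vehicle control islets, at 84.7 and 75.8 CPM for Gkn1 and 118 and 114 CPM for Gkn2. In vehicle knockout islets both had 0 CPM. With 2 libraries per group, no sample was tested for standing apart within its group.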

How the results depend on the processing

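At 24 h after STZ, 4119 higher and 3372 lower genes became 4796 and 3371 by DESeq2's Wald test, 4505 and 2917 with DESeq2 size factors, 4024 and 3257 without the low-count filter, and 3318 and 5183 with total-count scaling. Leaving out any of the 4 libraries gave 5226 to 5378 calls, and fitting only those 4 libraries gave 11328. Same-lettered libraries of the genotypes deviated together (correlation of the A minus B differences over 13083 genes 0.50 under vehicle, 0.26 at 24 h and 0.88 at 4 weeks after STZ), but the labels do not say that a letter marks a shared litter, batch or day; with the replicate block 10349 genes passed. Among the genes named, Bax, Col1a1, Dbp, Mafa, Nampt, Nr1d1, Parp1, Ppy, Rsad2 and Tnf passed with the block (adjusted p 0.000242 to 0.0424) and not without it, and Vegfa did not pass with it (adjusted p = 0.052). The block changed no median's sign and moved 23 of the 106 counts of higher or lower members by over 1.5 times. Under vehicle the 1679 calls became 2568 by DESeq2's Wald test, 3533 with the replicate block, 7205 with total-count scaling and 1064 to 1217 with a library left out (1064 and 1098 without a control library). STZ against vehicle in control islets had 1317 calls, and 2077 by the Wald test, 4264 with the block, 2634 with total-count scaling and 770 to 852 with a library left out. The 24 h minus 4 weeks difference had 3639 calls by the Wald test, 5659 with the block and 1187 to 2666 with a library left out (1187 to 1234 without a 24 h library); the interaction had 10144 with total-count scaling, and the 4-week comparison 8184 with the block. The cause of these changes was not tested.

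The Arntl exon difference was −0.95 over library totals (adjusted p = 0.216, exact permutation test) and −0.86 to −1.06 with a library left out; without any 1 of the control libraries, at −0.89 to −0.96, its adjusted p was 0.0866. Medians changed sign with total-count scaling for clock repressors (−0.23), clock outputs (−0.18), alkylation repair (−0.11), the respiratory chain (−0.02) and growth receptors (−0.19). They did so with DESeq2's size factors and Wald test for the unfolded protein response (0.05 in both) and cyclins (0.03 and 0.02), and, with libraries left out, for clock repressors (−0.06 to 0.1) and cyclins (−0.16 to 0.04). Uncalled genes that changed sign were Txnip (−0.14), Per2 (−0.23) and Ccl4 (−0.21) with total-count scaling, Ccl3 (0.03 and 0.02) and Sod2 (0.03 in both) with DESeq2's size factors and Wald test, and, with a library left out, Per2 (−0.06 to 0.1), Ccl4 (−0.14 to 0.26), Ccl3 (−0.31 to 0.17) and Sod2 (−0.16 to 0.06). Amd1 ranged from −10.7 to 0.16 with a library left out. Of the called genes named, Amd1, C1qa, Ccnd1, Diablo, E2f1, Gkn2, Hbegf, Hexa, Hlf, Il1r2, Krt7, Mgmt, Nmnat2, Nqo1, Per3, Rrm2b, Slc25a51, Usp2, Vegfa and Wfs1 lost the call with at least 1 library left out. Genes under about 1 CPM are limited by depth and replicate number.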

Other observations

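Further genes with large differences at 24 h after STZ were not yet described; of those below, only Apoa4 belongs to a group above, the intestinal one. Pdyn, which encodes the opioid precursor prodynorphin, had 11.6 and 10.9 CPM in knockout islets and 96.3 and 92.8 CPM in control islets (log2 −3.07, adjusted p = 4.9e-07 by edgeR's quasi-likelihood test). Car10, a carbonic anhydrase-related protein gene of neurons, had 6.17 and 7.33 CPM in knockout islets and 77.0 and 76.7 CPM in control islets (log2 −3.51). Both were separated between genotypes without overlap. Amd1, a polyamine synthesis gene, also passed as lower (adjusted p = 0.0327 by edgeR) but had 0.0103 and 0.00956 CPM in knockout islets and 0.00877 and 18.3 CPM in control islets, so the difference rests on control library B and is gone without it (log2 0.16). Of its exonic length, 99.7% is shared with another gene on the same strand.

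Among the gains, Jchain, the joining chain of secreted IgA and IgM, had 526 and 467 CPM in knockout islets and 6.64 and 6.43 CPM in control islets (log2 6.25), next to the lymphoid genes above. Apoa4, an intestinal apolipoprotein, had 179 and 203 CPM in knockout islets and 3.35 and 3.81 CPM in control islets (log2 5.74). Muc13, an epithelial mucin, had 132 and 129 CPM in knockout islets and 3.02 and 3.62 CPM in control islets (log2 5.30).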
